A study of Mus musculus with 12 samples.

Results

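The genes described here are 10 solute carriers of the kidney proximal tubule that move sugars, phosphate, amino acids and lactate: Slc5a1, Slc5a2, Slc2a2, Slc5a8, Slc34a1, Slc3a1, Slc7a9, Slc6a19, Slc7a12 and Slc38a3. They were taken by gene symbol from the deposited table of counts, which lists 36186 genes, and all 10 were found and all 10 passed the filter on low counts in each comparison. The data are RNA-seq of whole mouse kidneys at stage E18.5, on a mixed genetic background. The study removed Hox genes of the Abd-B type by frameshift mutations in neighbouring genes of a cluster, combined between clusters, and asked how gene expression in the kidney differed between genotypes.

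The proximal tubule is the first stretch of the nephron after the glomerulus, and it takes back most of the filtered glucose, phosphate and amino acids. Carriers in the brush border membrane couple uptake to sodium or exchange one solute for another, and carriers on the basolateral side pass the solutes on towards the blood. Before birth the tubules are still being formed, and the expression of these carriers increases as the tubule matures.

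There were 4 groups with 3 libraries each, named by genotype with the numbers the submitters gave. Wt was wild type (libraries Wt_30, Wt_37 and Wt_55). AkCh was Hoxa9,10,11-/- HoxC9,10,11+/- (libraries AkCh_20, AkCh_31 and AkCh_33), and AhCk was the reverse, Hoxa9,10,11+/- HoxC9,10,11-/- (libraries AhCk_38, AhCk_110 and AhCk_115). AkCk was Hoxa9,10,11-/- HoxC9,10,11-/- by its label (libraries AkCk_24, AkCk_27 and AkCk_29); the study's text describes the sequenced kidneys of this kind as keeping 1 or both normal Hoxa11 alleles, and the labels do not tell which library carried which. The HoxD cluster is not named in any of the 4 genotypes. The AhCk libraries came from the sequencing run named run1646 and the other 9 from run1008, so that for AhCk run and genotype cannot be told apart. The counts on genes ranged from 28616877 (AkCh_20) to 47067903 (AhCk_110), with a median of 39328488. At these depths 3 counts corresponded to counts-per-million (CPM) values of 0.0637 to 0.105, so that all 10 transporters were far above the counting limit except Slc6a19 in AkCh_20, which had 15 counts.

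The targeted Hox genes were still transcribed in every group. Hoxa10 was at 125, 152 and 164 CPM in Wt_30, Wt_37 and Wt_55, at 153, 103 and 107 CPM in AkCh_20, AkCh_31 and AkCh_33, at 113, 104 and 114 CPM in AhCk_38, AhCk_110 and AhCk_115, and at 100.2, 104 and 112 CPM in AkCk_24, AkCk_27 and AkCk_29. Hoxc10 was at 50.2, 58.8 and 66.9 CPM in Wt, 121, 45.3 and 41.6 CPM in AkCh, 32.1, 36.6 and 51.6 CPM in AhCk, and 37.8, 29.1 and 35.8 CPM in AkCk, in the same order of libraries. Both were lower in all 3 AkCk libraries than in any Wt library, with log2 fold changes of -0.49 for Hoxa10 and -0.78 for Hoxc10 (edgeR, Benjamini-Hochberg adjusted p = 0.0270 and 0.0127). The call of Hoxa10 was lost without Wt_37, Wt_55, AkCk_24 or AkCk_27 (highest edgeR adjusted p = 0.108), and that of Hoxc10 without Wt_37 (edgeR adjusted p = 0.0583). Hoxa9 ranged from 23.96 to 40.8 CPM over the 12 libraries, Hoxa11 from 37.1 to 61.5 CPM, Hoxc9 from 9.16 to 32.7 CPM and Hoxc11 from 0.892 to 2.94 CPM, and none of these differed past the threshold in any comparison. A frameshift can leave the transcript in place, so these levels check the labels only weakly. Xist, the transcript of the inactive X chromosome, was above 1 CPM in AkCh_31 and AkCh_33, AhCk_110 and AkCk_27 and AkCk_29, and the Y-linked Ddx3y was above 1 CPM in the other 7 libraries, which included all 3 of Wt.

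Glucose is taken up by the sodium-coupled carriers Slc5a2, which serves the early proximal tubule with high capacity, and Slc5a1, which recovers the rest further down with high affinity. Slc5a1 (Entrez Gene 20537, chr5:33104219-33162699 in GRCm38.p6) was at 98.9, 41.4 and 32.96 CPM in Wt_30, Wt_37 and Wt_55, at 18.3, 89.5 and 102 CPM in AkCh_20, AkCh_31 and AkCh_33, at 103, 50.7 and 46.9 CPM in AhCk_38, AhCk_110 and AhCk_115, and at 119, 118 and 85.6 CPM in AkCk_24, AkCk_27 and AkCk_29. The AkCk libraries lay high and close together, whereas in each of the other groups 1 library stood apart, upwards in Wt and AhCk and downwards in AkCh; Wt_30 lay above AkCk_29, so Wt and AkCk overlapped. Slc5a2 (Entrez Gene 246787, chr7:128265683-128272430) was at 31.9, 6.73 and 4.95 CPM in Wt, 1.20, 12.1 and 36.3 CPM in AkCh, 34.6, 12.2 and 7.63 CPM in AhCk, and 6.16, 14.2 and 6.59 CPM in AkCk. Here the AkCk libraries were not high: all 3 lay inside the range of Wt, and the 3 highest values belonged to AkCh_33, AhCk_38 and Wt_30. Slc2a2 (Entrez Gene 20526, chr3:28697903-28728361), the facilitative carrier through which glucose leaves the cell on the basolateral side, was at 77.4, 43.1 and 26.2 CPM in Wt, 19.3, 60.1 and 107 CPM in AkCh, 86.8, 42.6 and 31.9 CPM in AhCk, and 65.6, 68.8 and 51.5 CPM in AkCk. All 3 AkCk values of Slc2a2 fell between Wt_37 and Wt_30.

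Slc5a8 (Entrez Gene 216225, chr10:88885992-88929515) belongs to the same family as Slc5a1 and Slc5a2 but carries lactate and other monocarboxylates with sodium. It was at 243, 78.7 and 59.5 CPM in Wt, 29.7, 201 and 243 CPM in AkCh, 213, 103 and 88.1 CPM in AhCk, and 302, 373 and 185 CPM in AkCk. AkCk_24 and AkCk_27 were the highest of all 12 libraries, while AkCk_29 lay below Wt_30, so the groups overlapped through these libraries.

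Slc34a1 (Entrez Gene 20505, chr13:55399622-55414695) is the sodium-phosphate cotransporter of the brush border and had the highest CPM of the 10 transporters in every library. It was at 760.1, 368 and 266 CPM in Wt, 83.0, 580.0 and 1068 CPM in AkCh, 1087, 470.1 and 419.8 CPM in AhCk, and 738, 875 and 558 CPM in AkCk. The spread inside a group exceeded the distance between groups: AkCh_20 was the lowest library and AkCh_33 was second only to AhCk_38, and AkCk_24 and AkCk_29 lay below Wt_30.

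Slc3a1 and Slc7a9 are the heavy and light subunits of the carrier for cystine and dibasic amino acids, which is lost in cystinuria. Slc3a1 (Entrez Gene 20532, chr17:85028347-85064241) was at 216, 75.9 and 51.0 CPM in Wt, 17.5, 189.7 and 288 CPM in AkCh, 259, 119 and 76.2 CPM in AhCk, and 245, 346 and 165 CPM in AkCk. Slc7a9 (Entrez Gene 30962, chr7:35448727-35466034) was at 24.7, 11.3 and 9.01 CPM in Wt, 4.44, 19.2 and 28.5 CPM in AkCh, 31.7, 13.6 and 10.5 CPM in AhCk, and 19.0, 24.9 and 16.0 CPM in AkCk. Both subunits were high in Wt_30, AkCh_33, AhCk_38 and AkCk_27 and lowest in AkCh_20, and both overlapped between Wt and every mutant group. The subunits nevertheless differed in how far AkCk stood out, since AkCk_24 and AkCk_27 were above every Wt library for Slc3a1, and only AkCk_27 was above Wt_30 for Slc7a9, by less than 1 CPM.

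The remaining amino acid carriers serve neutral amino acids and glutamine. Slc6a19 (Entrez Gene 74338, chr13:73679745-73700780), the sodium-coupled carrier of neutral amino acids whose loss causes Hartnup disorder, was the scarcest, at 5.99, 2.84 and 2.45 CPM in Wt, 0.579, 5.93 and 6.15 CPM in AkCh, 7.81, 4.11 and 2.55 CPM in AhCk, and 3.58, 4.81 and 3.16 CPM in AkCk. The AkCk libraries lay inside the range of Wt, as they did for Slc5a2. Slc7a12 (Entrez Gene 140918, chr3:14480697-14505819), a relative of Slc7a9 that carries small neutral amino acids, was at 55.1, 17.5 and 15.7 CPM in Wt, 4.44, 46.1 and 48.5 CPM in AkCh, 53.8, 19.7 and 12.9 CPM in AhCk, and 57.4, 88.6 and 40.7 CPM in AkCk. Slc38a3 (Entrez Gene 76257, chr9:107651154-107668968), the basolateral carrier that brings in glutamine for ammonia production, was at 52.4, 30.6 and 24.4 CPM in Wt, 16.8, 40.7 and 53.8 CPM in AkCh, 45.9, 29.9 and 35.1 CPM in AhCk, and 71.6, 95.1 and 52.6 CPM in AkCk. Slc38a3 was the only transporter of the 10 for which every AkCk library was above every Wt library, where 17.3% of all genes tested were. The margin between AkCk_29 and Wt_30 was small.

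**Figure D1:**
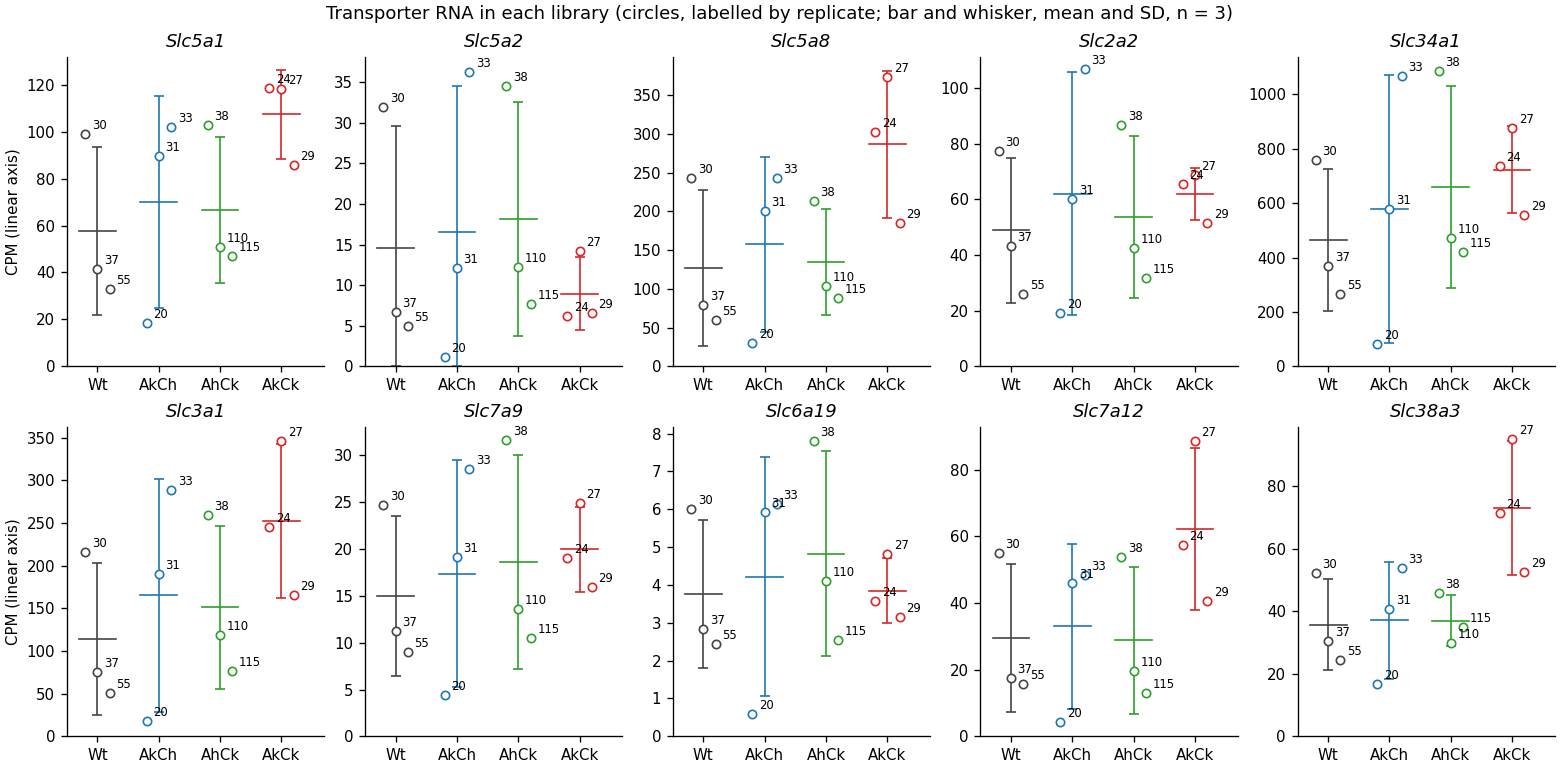
CPM of each transporter (linear vertical axis, 1 panel a gene) in the 4 genotypes; circles are libraries labelled by replicate number, and the bar and whisker give the mean and SD of 3 libraries, with the lower whisker ending at the axis where it would pass below 0. Wt_30 is above the other Wt libraries and AkCh_20 is the lowest of the 12 in all 10 panels.

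The 10 transporters moved together from library to library, so that a few libraries set the spread of their groups. Wt_30 was the highest Wt library and Wt_55 the lowest for 10 of 10 transporters, and the level in Wt_30 was between 1.90 (Slc38a3) and 5.47 times (Slc5a2) the mean of Wt_37 and Wt_55, with a median of 2.55. AkCh_20 was the lowest of all 12 libraries for 10 of 10, and the mean of AkCh_31 and AkCh_33 was between 2.81 (Slc38a3) and 20.2 times (Slc5a2) its level, with a median of 8.70. AhCk_38 was the highest of its group for 10 of 10, at 1.41 (Slc38a3) to 3.48 times (Slc5a2) the mean of AhCk_110 and AhCk_115. AkCk_27 was the highest of its group for 9 of 10, the exception being Slc5a1, and AkCk_29 the lowest for 9 of 10, the exception being Slc5a2. Slc38a3 varied least and Slc5a2 most in all 3 of these ratios. In bulk tissue, fewer proximal tubule cells and less RNA per cell cannot be told apart.

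Summed over the 10 transporters, Wt_30, Wt_37 and Wt_55 held 1566, 676 and 493 CPM, AkCh_20, AkCh_31 and AkCh_33 held 195, 1244 and 1981 CPM, AhCk_38, AhCk_110 and AhCk_115 held 1923, 865 and 732 CPM, and AkCk_24, AkCk_27 and AkCk_29 held 1627, 2009 and 1164 CPM. Every AkCk library was thus above Wt_37 and Wt_55, and 1 AkCk library, AkCk_29, was below Wt_30. The SD of log2 CPM within Wt had a median of 0.81 over the 10 transporters. It was 0.14 over the 16260 genes that passed the filter over all libraries. The same medians were 1.80 against 0.32 in AkCh, 0.78 against 0.14 in AhCk, and 0.38 against 0.15 in AkCk. Some genes had an SD at least as large as the transporters' median. They were 3.86% of all genes in Wt, 2.06% in AkCh, 4.72% in AhCk and 17.5% in AkCk. Wt_30 was known to differ in proximal tubule genes when the transporters were chosen, so a large spread within Wt was known beforehand. The shares also set a list's median against single genes, so nothing is read from them. Of the 4 groups, AkCk was the one in which the transporters varied least.

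Levels between genes were compared per kilobase of exon. In Wt, Slc34a1 had the highest mean, 99.4 ± 55.7 CPM per kb (SD, n = 3), followed by Slc3a1 at 50.4 ± 39.2, Slc5a8 at 23.8 ± 18.9, Slc7a12 at 16.9 ± 12.8 and Slc5a1 at 14.1 ± 8.74 CPM per kb. Slc2a2 at 8.50 ± 4.54, Slc38a3 at 6.78 ± 2.78, Slc7a9 at 5.61 ± 3.18 and Slc5a2 at 5.02 ± 5.21 CPM per kb lay close to each other, and Slc6a19 at 0.751 ± 0.388 CPM per kb was the lowest. Only the last pair of neighbours in this order, Slc5a2 and Slc6a19, had ranges that did not overlap in Wt. AkCh and AhCk had the order of Wt. In AkCk Slc38a3 moved ahead of Slc2a2, at 13.9 ± 4.04 against 10.8 ± 1.60 CPM per kb, with overlapping ranges. The neighbours in AkCk whose ranges did not overlap were Slc3a1 and Slc5a8, Slc5a1 and Slc38a3, Slc7a9 and Slc5a2, and Slc5a2 and Slc6a19.

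Partners and relatives did not keep a fixed proportion. The level of Slc5a1 over that of Slc5a2, both per kb, was 2.19, 4.34 and 4.70 in Wt_30, Wt_37 and Wt_55, 10.8, 5.21 and 1.98 in AkCh_20, AkCh_31 and AkCh_33, 2.09, 2.92 and 4.34 in AhCk_38, AhCk_110 and AhCk_115, and 13.6, 5.88 and 9.16 in AkCk_24, AkCk_27 and AkCk_29. The ratio was above every Wt value in all 3 AkCk libraries, and also in AkCh_20 and AkCh_31. The level of Slc3a1 over that of its partner Slc7a9 was 10.3, 7.95 and 6.68 in Wt, 4.63, 11.7 and 11.9 in AkCh, 9.62, 10.3 and 8.54 in AhCk, and 15.2, 16.3 and 12.2 in AkCk. All 3 AkCk libraries exceeded every library of the other groups in this ratio, and AkCh_20 was the lowest. Both ratios were picked out after the values were seen.

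AkCk, with mutations in both the HoxA and the HoxC genes, was compared with Wt. Slc38a3 was at 73.1 ± 21.3 CPM (SD, n = 3) in AkCk and 35.8 ± 14.7 CPM in Wt, and Slc5a1 at 107 ± 18.9 against 57.8 ± 35.9 CPM. Slc5a8 was at 287 ± 94.9 against 127 ± 101 CPM, Slc3a1 at 252 ± 90.6 against 114 ± 89.1 CPM and Slc7a12 at 62.3 ± 24.3 against 29.4 ± 22.2 CPM. For Slc5a2 the means went the other way, 8.97 ± 4.50 CPM in AkCk and 14.5 ± 15.1 CPM in Wt. No transporter passed the threshold, an adjusted p of 0.05 by the quasi-likelihood test of edgeR with Benjamini-Hochberg adjustment over 15839 genes: 0 of 10, where 13.7% of all genes tested passed (2171 genes, 999 higher and 1172 lower in AkCk). At an unadjusted p under 0.05, 2 of 10 passed (Slc5a1 and Slc38a3), against 32.4% of all genes, and DESeq2 and limma each called 0 of 10, against 22.2% and 13.9%. The log2 fold changes were above 0 for 9 of 10 and for 49.0% of all genes tested, with medians of 0.77 and -0.01. The 10 transporters moved together between libraries, so their directions are not independent.

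The transporter nearest to the threshold was Slc38a3, with a log2 fold change of 1.03 ± 0.30 (SE) and an edgeR adjusted p of 0.0617. It was the 1 transporter of 10 whose groups did not overlap, where 17.3% of all genes tested were higher in AkCk without overlap and 20.8% were lower. Slc5a8 (1.17 ± 0.51), Slc3a1 (1.14 ± 0.51), Slc7a12 (1.08 ± 0.50) and Slc5a1 (0.90 ± 0.38) had log2 fold changes of similar size with edgeR adjusted p from 0.148 to 0.175. Those of Slc34a1 (0.64 ± 0.36), Slc7a9 (0.41 ± 0.36), Slc2a2 (0.34 ± 0.34) and Slc6a19 (0.04 ± 0.35) were smaller, and that of Slc5a2 was -0.69 ± 0.69. With library sizes alone in place of TMM factors the value for Slc6a19 turned to -0.02. Since no Wt library and 2 of 3 AkCk libraries had Xist above 1 CPM, Xist was entered as a covariate over the 12 libraries. The median log2 fold change was then 0.47 with 8 of 10 above 0, Slc6a19 turned to -0.41, and edgeR again gave 0 of 10. In this fit Slc34a1 was at 0.27, Slc7a9 at 0.11, Slc2a2 at 0.10 and Slc5a2 at -1.40.

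These calls changed with Wt_30. Without it, 8 of 10 transporters were higher in AkCk past the threshold, where 21.1% of all genes tested passed (3386 of 16080), and the median log2 fold change was 1.30. Wt_30 was the highest Wt library for 10 of 10 transporters and was known to differ in proximal tubule genes when they were chosen, so its removal raises each value and narrows the spread of Wt by construction. The count is therefore no test of AkCk against Wt, and the same holds for the counts without Wt_30 of the lists of proximal tubule genes below. Slc5a8 then had a log2 fold change of 2.05, Slc3a1 of 1.99 and Slc5a1 of 1.53. Slc6a19 (0.54) and Slc5a2 (0.62), which turned from below to above 0, were not called. Leaving out any of the other 5 libraries in turn gave 0 of 10, with a median log2 fold change from 0.49 (without Wt_55) to 0.91 (without AkCk_29). Omitting Wt_37 or Wt_55 turned Slc6a19 below 0 (-0.12 and -0.19), as did omitting AkCk_27 (-0.15). The count over all genes also changed: it was 535 without Wt_37, 633 without Wt_55, 793 without AkCk_24, 1101 without AkCk_27 and 1644 without AkCk_29. A fit with fewer libraries has less power, so a call lost in it need not depend on the library left out. This holds for every lost call in the text.

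**Figure D2:**
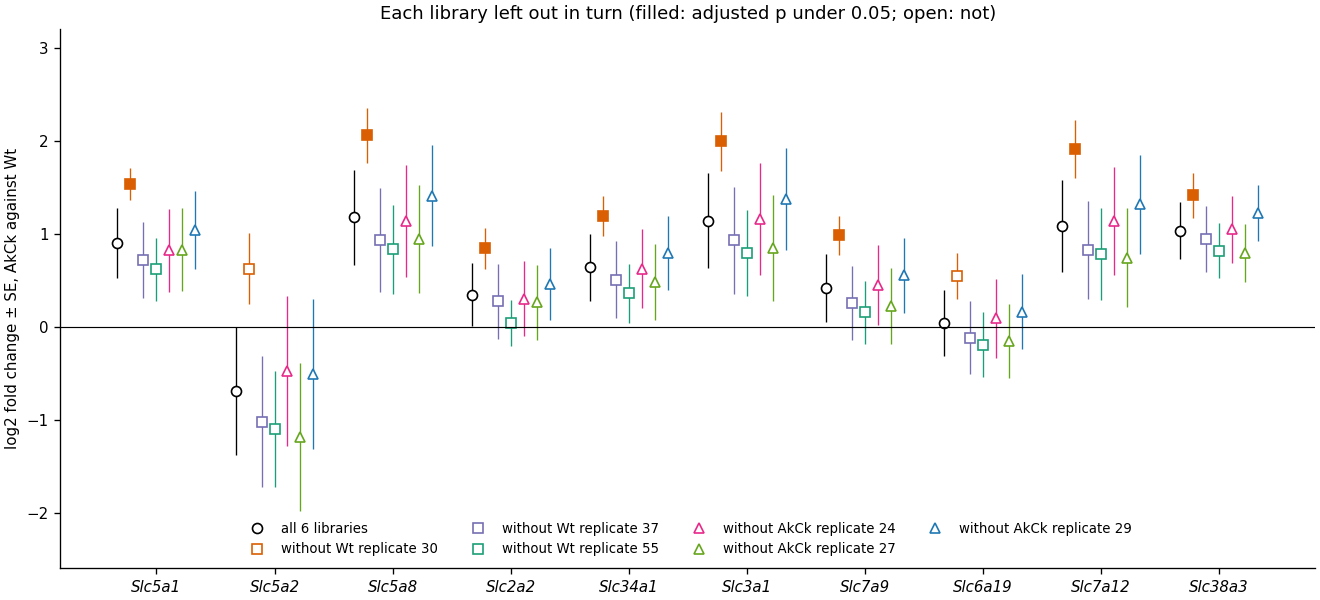
Log2 fold change of AkCk against Wt (vertical axis, with SE) for each transporter (horizontal axis) with all 6 libraries and with each library left out in turn; filled symbols have an edgeR adjusted p under 0.05. Filled symbols occur only without Wt_30, for 8 of 10 transporters, with Slc5a8 at 2.05.

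AkCh was compared with Wt to see what remained with 1 functional copy of the HoxC genes, using the same Wt libraries. AkCh_20 was below every Wt library for 10 of 10 transporters, while AkCh_33 was above every Wt library for 9 of 10, the exception being Slc7a12, so the AkCh levels enclosed those of Wt. By edgeR 0 of 10 passed, and 0.0% of all genes (0 of 15789). At an unadjusted p under 0.05 edgeR gave 0 of 10 transporters and 2.28% of all genes (360), DESeq2 called 0 of 10 and 0.139% of all genes (22), and limma called 0 of both. No transporter was higher or lower in AkCh without overlap, where 3.58% and 4.77% of all genes tested were. The log2 fold changes ran from 0.05 (Slc38a3) to 0.53 (Slc3a1) with a median of 0.25, against 0.03 over all genes, and their SE from 0.47 to 1.17 exceeded each of them.

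Which library was left out moved the median log2 fold change of AkCh against Wt from 0.25 to 0.89 (without Wt_30), 0.05 (without Wt_37), -0.04 (without Wt_55), 0.73 (without AkCh_20), 0.12 (without AkCh_31) and -0.25 (without AkCh_33). Each of these fits again gave 0 of 10, and over all genes only the fit without AkCh_20 gave any call (8 genes). Wt_30 and AkCh_20 stood apart in opposite directions, as the highest Wt and the lowest AkCh library for 10 of 10 transporters. With both left out, a choice made on these very values, 10 of 10 were higher in AkCh past the threshold, where 17.6% of all genes tested passed (2787 of 15878). The choice fixed that direction, so the count is no test and nothing is read from it. That fit also set AkCh_31 and AkCh_33, both with Xist, against Wt_37 and Wt_55, both with Ddx3y, so that sex and genotype cannot be told apart in it. With Xist as a covariate over all 12 libraries, the 10 values were all below 0, with a median of -0.28, and 0 of 10 passed by edgeR. With limma on the deposited log2 values 4 of 10 were above 0, with a median of -0.02.

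AhCk, with 1 functional copy of the HoxA genes, was compared with the same Wt libraries. Slc34a1 was at 659 ± 372 CPM (SD, n = 3) in AhCk and 465 ± 261 CPM in Wt, with a log2 fold change of 0.51 ± 0.47 (edgeR adjusted p = 0.578), the largest of the 10. Slc7a12 was at 28.8 ± 21.9 against 29.4 ± 22.2 CPM, the only transporter whose log2 fold change was below 0 (-0.03 ± 0.64). By edgeR 0 of 10 passed, where 2.36% of all genes did (376 of 15902), and at an unadjusted p under 0.05 the shares were 0 of 10 and 21.1%. None was without overlap between AhCk and Wt, where 11.4% of all genes tested were higher in this way and 15.3% lower. DESeq2 called 0 of 10 and 8.46% of all genes (1318), and limma 0 of 10 and 2.3% (365). The median log2 fold change was 0.26, against 0.01 over all genes, and it was 0.86 without Wt_30, 0.04 without Wt_37, -0.08 without Wt_55, -0.28 without AhCk_38, 0.42 without AhCk_110 and 0.51 without AhCk_115, each again with 0 of 10 past the threshold. Over all genes the count was 60 without Wt_37, 70 without Wt_55, 63 without AhCk_110 and 99 without AhCk_115. Correction for GC content and exon length turned Slc7a12 to 0.32 and Slc38a3 to -0.03. With Xist as a covariate over all 12 libraries the median was 0.12, with 7 of 10 above 0.

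By their labels AkCk and AkCh share the loss of the HoxA genes and differ in the remaining HoxC copy. By the study's text AkCk kept normal Hoxa11 alleles, so the groups may differ in Hoxa11 as well. Slc38a3 was at 73.1 ± 21.3 against 37.1 ± 18.8 CPM (SD, n = 3), with a log2 fold change of 1.00 ± 0.42 (edgeR adjusted p = 0.442), and Slc7a12 and Slc5a8 had values of 0.93 ± 0.77 and 0.88 ± 0.69. Slc5a2 lay at -0.86 ± 0.98. By edgeR 0 of 10 transporters passed and 0.0% of all genes (0 of 15764), with 0 of 10 and 11.3% at an unadjusted p under 0.05; DESeq2 called 0 of 10 and 3.52% (554), and limma 0 of both. None of the 10 was without overlap, where 9.95% of all genes tested were higher and 13.1% lower. The median log2 fold change was 0.50 with 8 of 10 above 0, against -0.01 over all genes, and it rested on AkCh_20: without that library the median was -0.03 with 5 of 10 above 0, and 687 genes passed, none of them a transporter. Without AkCh_33 the median was 1.07 with 10 of 10 above 0, and without AkCk_27 it was 0.26 with 7 of 10. By limma on the deposited log2 values it was 0.95 with 10 of 10 above 0. Xist as a covariate over all 12 libraries gave 0.69 with 9 of 10 above 0.

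The 3 comparisons against Wt share the Wt libraries, and AkCk against AkCh shares libraries with 2 of them, so their values are not independent. Side by side, Slc38a3 had log2 fold changes of 1.03 in AkCk, 0.05 in AkCh and 0.05 in AhCk against Wt. Slc5a8 had 1.17, 0.31 and 0.09, and Slc7a12 had 1.08, 0.17 and -0.03, in the same order. Slc34a1 had 0.64, 0.31 and 0.51, and Slc5a2 had -0.69, 0.19 and 0.32. AkCk had the largest value of the 3 for 7 of 10 transporters, the exceptions being Slc5a2, Slc2a2 and Slc6a19; these differences between comparisons were not tested.

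**Figure D3:**
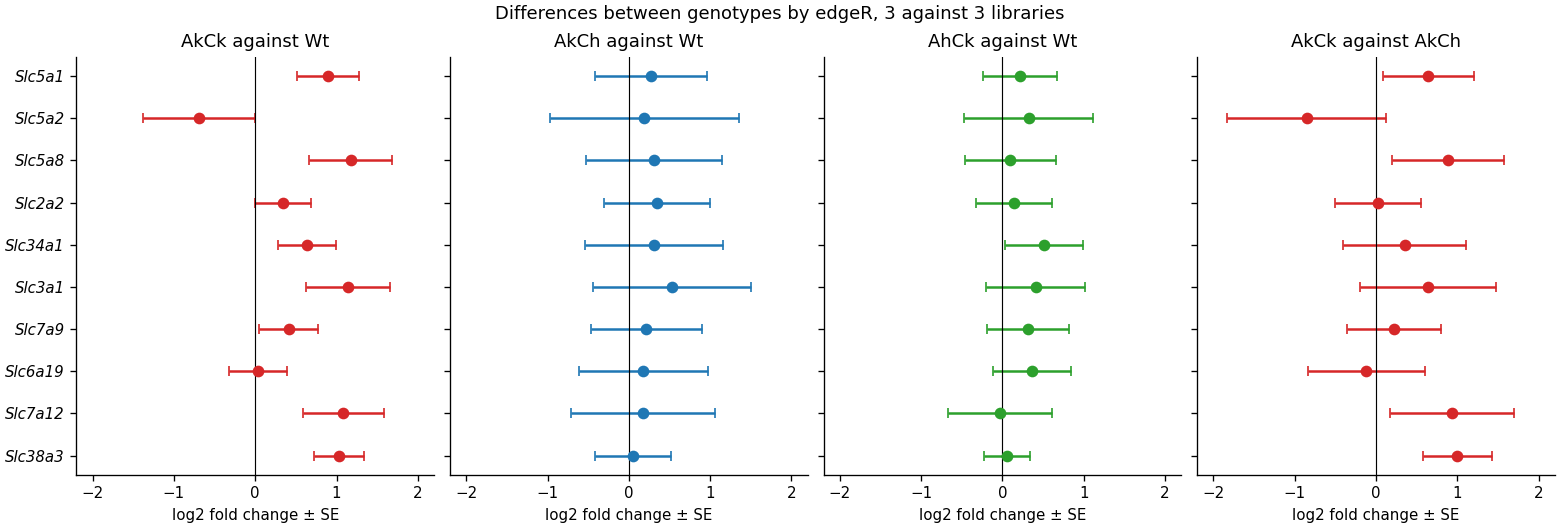
Log2 fold change by edgeR (horizontal axis, with SE, 3 against 3 libraries) of each transporter (vertical axis) in the 4 comparisons, 1 panel each. In the panel of AkCk against Wt 9 of 10 points lie right of 0, and in that of AkCh against Wt every whisker crosses 0.

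Other carriers of the same solutes were counted as a list of their own. Of 22 further sugar, phosphate and amino acid transporters, 0 passed the threshold by edgeR for AkCk against Wt, with 20 of 22 above 0 and a median log2 fold change of 0.55, and without Wt_30 it was 14 of 22, all higher. At an unadjusted p under 0.05 edgeR gave 7 of 22, DESeq2 called 5 and limma 1, and without AkCk_29 edgeR called 1. Slc7a7, which releases dibasic amino acids on the basolateral side, was at 53.3, 19.6 and 15.1 CPM in Wt_30, Wt_37 and Wt_55 and at 35.9, 66.3 and 27.1 CPM in AkCk_24, AkCk_27 and AkCk_29. For AhCk against Wt 1 of 22 passed: Slc7a8, a basolateral exchanger of neutral amino acids, at 57.4, 50.04 and 47.3 CPM in Wt and 74.9, 97.2 and 79.1 CPM in AhCk, which rose with a log2 fold change of 0.71 ± 0.12 (edgeR adjusted p = 0.0349). It no longer passed without Wt_37, Wt_55, AhCk_110 or AhCk_115 (highest edgeR adjusted p = 0.185). None of the 22 passed for AkCh against Wt or AkCk against AkCh by edgeR, DESeq2 or limma, nor at an unadjusted p under 0.05 by edgeR. By the mean over the 12 libraries the most abundant of them was Slc6a6, the taurine carrier, at 112 CPM in AkCh_20 and 163 to 219 CPM in the other 11 libraries.

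Among 6 partner and scaffold proteins were Tmem27 (collectrin), which brings Slc6a19 to the membrane, and Pdzk1 and Slc9a3r1, which hold Slc34a1 in the brush border. Pdzk1 was at 571, 338 and 299 CPM in Wt, 131, 583 and 793 CPM in AkCh, 685, 459 and 441 CPM in AhCk, and 748, 843 and 558 CPM in AkCk, thus lowest in AkCh_20 and, within Wt, highest in Wt_30, like the transporter it binds. Slc9a3r1 was the 1 of 6 that passed for AkCk against Wt, at 186, 181 and 178 CPM in Wt and 244, 221 and 215 CPM in AkCk, where it rose with a log2 fold change of 0.32 ± 0.08 (edgeR adjusted p = 0.0327). DESeq2 called 3 of 6 and limma 1, and without Wt_30 edgeR called 3 of 6, Pdzk1 among them. Tmem27 per kb was between 68.8 times (AhCk_38) and 409 times (AkCh_20) the level of Slc6a19, so that Slc6a19 was the scarcer of this pair in every library. For the other 3 comparisons 0 of 6 passed by edgeR, DESeq2 or limma, and at an unadjusted p under 0.05 edgeR gave 1 of 6, for AkCk against AkCh.

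Of 7 transcription factors of the proximal tubule, Maf passed for AkCk against Wt. It was at 86.9, 63.4 and 62.2 CPM in Wt and 117, 143 and 93.9 CPM in AkCk, and rose with a log2 fold change of 0.73 ± 0.18 (edgeR adjusted p = 0.0366). Both Maf and Slc9a3r1 lost the call when Wt_37, Wt_55, AkCk_24 or AkCk_27 was left out (highest edgeR adjusted p = 0.127 and 0.123). Hnf4a, a nuclear receptor that drives the maturation of these cells, was the most abundant of the 7 by the mean over the 12 libraries, at 289, 147 and 130.0 CPM in Wt and 300.1, 291 and 228 CPM in AkCk, with a log2 fold change of 0.53 ± 0.29 (edgeR adjusted p = 0.237). Without Wt_30 4 of 7 passed, Hnf4a, Ppara and Maf among them, and with all libraries DESeq2 and limma each called 1. For the other comparisons 0 of 7 passed by edgeR, DESeq2 or limma, with 1 of 7 at an unadjusted p under 0.05 by edgeR for AhCk against Wt.

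Promoter sequences were available for 7 of the 10 transporters in a RefSeq table of GRCm38.p6, as windows from 250 bases before to 50 after a start site; there was no entry for Slc5a2, Slc7a12 or Slc38a3. Hnf4a is among the factors listed above, and the windows were searched on both strands for CAAAGTCCA, letters known from the binding site of HNF4. CAAAGTCCA was found in 0.475% of 32851 promoters. Of the transporters with a window, Slc3a1 alone held a match, 1 in number. Its window is printed on the plus strand with the match in capitals, at chr17:85028097-85028396, followed by a window of Slc7a9 at chr7:35448842-35449141, also on the plus strand, which is shown because its product pairs with Slc3a1 and which held no match. A match describes the letters of the window and nothing about binding.
Slc3a1: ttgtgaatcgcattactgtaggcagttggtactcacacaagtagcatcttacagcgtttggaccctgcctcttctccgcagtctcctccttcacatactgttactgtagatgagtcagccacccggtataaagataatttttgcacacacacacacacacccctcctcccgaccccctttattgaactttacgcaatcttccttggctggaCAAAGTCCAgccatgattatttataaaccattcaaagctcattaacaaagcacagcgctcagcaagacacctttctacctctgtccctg
Slc7a9: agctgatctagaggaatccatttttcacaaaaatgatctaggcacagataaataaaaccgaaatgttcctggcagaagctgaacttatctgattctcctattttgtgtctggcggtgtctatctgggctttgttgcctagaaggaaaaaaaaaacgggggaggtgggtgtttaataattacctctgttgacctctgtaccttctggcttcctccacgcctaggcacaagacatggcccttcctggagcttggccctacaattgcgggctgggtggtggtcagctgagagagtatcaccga

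Markers of other cells were read beside the transporters. Of 25 other proximal tubule markers, such as the endocytic receptors Lrp2 and Cubn, 0 passed for AkCk against Wt by edgeR, with a median log2 fold change of 0.57 and 23 of 25 above 0, and 19 of 25 passed without Wt_30. At an unadjusted p under 0.05 edgeR gave 3 of 25, and DESeq2 and limma each called 1. Their summed level was 7304, 3745 and 2779 CPM in Wt_30, Wt_37 and Wt_55, 1463, 6087 and 8298 CPM in AkCh_20, AkCh_31 and AkCh_33, 7305, 4157 and 3912 CPM in AhCk_38, AhCk_110 and AhCk_115, and 6674, 8435 and 5392 CPM in AkCk_24, AkCk_27 and AkCk_29. These sums were high and low in the same libraries as those of the transporters. In the other comparisons 0 of 25 passed by edgeR, DESeq2 or limma, with 0 also at an unadjusted p under 0.05 by edgeR.

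Of 7 markers of the cap mesenchyme, the nephron progenitors, 4 were lower in AkCk than in Wt past the threshold (Cited1, Meox1, Crym and Gdnf; median log2 fold change -1.34). By edgeR 0 of 7 passed in the other comparisons, with 3 at an unadjusted p under 0.05 for AhCk against Wt and 5 for AkCk against AkCh; DESeq2 called 1 in each of these and limma 0, and without Wt_30 edgeR called 1 for AhCk against Wt. Their summed level was 216, 283 and 314 CPM in Wt_30, Wt_37 and Wt_55, 489, 233 and 209 CPM in AkCh_20, AkCh_31 and AkCh_33, 187, 247 and 237 CPM in AhCk_38, AhCk_110 and AhCk_115, and 95.6, 68.3 and 179.8 CPM in AkCk_24, AkCk_27 and AkCk_29, with Six2 the most abundant (13.2 to 164 CPM). In Wt, AkCh and AkCk the order of the libraries was the reverse of that of the transporters' summed level: Wt_30, AkCh_33 and AkCk_27 were the lowest of their groups in progenitor markers and the highest in transporters, and AkCh_20, the lowest library in transporters, was the highest in progenitor markers. The part of these cells in the transporter levels was not tested. Of the 4 calls, Gdnf held when any 1 library was left out, while Cited1, Meox1 and Crym lost the call without Wt_37, Wt_55, AkCk_24 or AkCk_27; without AkCk_29 the count was 6 of 7.

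Stromal markers rose in AkCk against Wt, 6 of 7 past the threshold (Pdgfra, Col1a1, Col3a1, Dcn, Lum and Postn) with a median log2 fold change of 1.88, and the count was 6 of 7 whichever library was left out. Their summed level was 2909 to 3116 CPM in Wt, 3278 to 4284 CPM in AkCh, 3836 to 5173 CPM in AhCk and 8259 to 10197 CPM in AkCk, led by Col3a1; in AhCk 3 of 7 passed (Col3a1, Lum and Postn), each of which lost the call without Wt_37, Wt_55 or AhCk_110, Col3a1 and Lum also without AhCk_115 and Postn without Wt_30, while 4 of 7 passed without AhCk_38. At an unadjusted p under 0.05 edgeR gave 6 of 7 for AhCk against Wt, where DESeq2 called 6 and limma 2. In AkCh against Wt none passed by edgeR, 3 were under an unadjusted p of 0.05, and DESeq2 called 1 and limma 0. For AkCk against AkCh edgeR and limma called 0 of 7, 6 were under an unadjusted p of 0.05 by edgeR, DESeq2 called 6, and without AkCh_20 edgeR called 5. The summed level was higher in each AkCk library than in the other 9, whereas for Pdgfrb alone AkCk_24 (245 CPM) lay below AkCh_20 (258 CPM). Podocyte markers passed for 4 of 5 in AkCk (Podxl, Synpo and Ptpro among them), with summed levels of 1021 to 1072 CPM in Wt, 511 CPM in AkCh_20, 1106 to 1178 CPM in the other AkCh libraries, 1099 to 1272 CPM in AhCk and 1302 to 1721 CPM in AkCk; all 4 lost the call without Wt_37, Wt_55 or AkCk_24, and Podxl, the most abundant, also without AkCk_27. In the other comparisons edgeR and limma called 0 of 5, with 3 at an unadjusted p under 0.05 by edgeR for AhCk against Wt, where DESeq2 called 2, and 2 for AkCk against AkCh. Loop of Henle markers passed for 2 of 6 in AkCk (Cldn16 and Cldn19), and both lost the call without Wt_37, Wt_55, AkCk_24 or AkCk_27, and Cldn16 also without Wt_30, where Slc12a1 passed instead. For AkCk against Wt 4 of 6 were under an unadjusted p of 0.05 by edgeR, DESeq2 called 3 and limma 2. In the other comparisons edgeR and limma called 0 of 6, with 1 at an unadjusted p under 0.05 by edgeR for AhCk against Wt and 2 for AkCk against AkCh, where DESeq2 called 1. Their most abundant gene was Slc12a1, at 268 CPM in AkCh_20 and 466 to 1129 CPM elsewhere. Of 6 markers of the distal and connecting tubule none passed in the 4 comparisons by edgeR or limma with all libraries, while Slc12a3 passed by edgeR for AkCk against Wt without Wt_30. At an unadjusted p under 0.05 edgeR gave 2 of 6 for AhCk against Wt and 0 elsewhere, and DESeq2 called 1 for AhCk against Wt. Of 8 markers of the collecting duct none passed by edgeR or limma. DESeq2 called 2 of 8 for AkCk against Wt and 1 for AkCk against AkCh, and an unadjusted p under 0.05 by edgeR was reached by 2 for AkCk against Wt and by 1 in each other comparison. The summed levels of these lists ranged from 265 to 513 CPM and from 663 to 914 CPM, with Calb1 and Krt8 the most abundant by the mean over the 12 libraries.

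Intestinal and adrenal markers were scarce. Of 6 intestinal markers Fabp2 was at 0 in all 12 libraries, all 6 stayed under 1 CPM in each library, and Lct was the most abundant by the mean over the libraries (at most 0.921 CPM). The 6 adrenal markers summed to 3.74 to 5.02 CPM in 11 libraries and 10.9 CPM in AkCk_29, with Star the most abundant (2.65 to 4.55 CPM). Of each of these lists 2 genes were tested, and 0 passed by edgeR or limma. For AkCk against Wt 1 of 2 adrenal genes was under an unadjusted p of 0.05 by edgeR and was called by DESeq2, and without AkCk_24 edgeR called 1 of 3; neither tool gave any for the intestine or for the adrenal list in another comparison. The 12 liver markers summed to 56.0 to 161 CPM, led by Afp, and 4 of 12 rose in AkCk (Alb, Ttr, Fgg and Ahsg), of which Alb lost the call without Wt_37 or Wt_55, Ttr without Wt_37, Ahsg without Wt_37, Wt_55 or AkCk_24, and Fgg with any library left out but AkCk_29. The count was 6 of 12 without AkCk_29 and 4 of 12 without Wt_30, and with all libraries DESeq2 called 6 and limma 3. In the other comparisons 0 liver markers passed by edgeR or limma. At an unadjusted p under 0.05 edgeR gave 6 of 11 for AkCh and 5 of 11 for AhCk against Wt, where DESeq2 called 4, and without Wt_55 or AhCk_110 edgeR called 1 of 12 for AhCk against Wt. Of 6 red blood cell markers 5 were in the table (Hbb-bt was not found by symbol), and they summed to 538, 1299 and 1364 CPM in Wt_30, Wt_37 and Wt_55, 2006, 556 and 765 CPM in AkCh_20, AkCh_31 and AkCh_33, 521, 1792 and 5838 CPM in AhCk_38, AhCk_110 and AhCk_115, and 1525, 1525 and 1147 CPM in AkCk_24, AkCk_27 and AkCk_29. By the mean over the 12 libraries Hbb-bs was the most abundant, and 0 passed by edgeR in any comparison. For AkCk against Wt 3 of 5 were under an unadjusted p of 0.05, DESeq2 called 2 and limma 1, and without Wt_37 edgeR called 1. For AkCk against AkCh 2 of 5 were under an unadjusted p of 0.05, DESeq2 called 1, and without AkCh_20 edgeR called 3. For AhCk against Wt 1 of 5 was under an unadjusted p of 0.05, DESeq2 called 1, and without AhCk_38 edgeR called 1. By their sums, blood markers were lowest of their group in Wt_30 and AhCk_38, which were the highest in transporters, and highest of its group in AkCh_20, the lowest in transporters. In AkCk the library lowest in transporters, AkCk_29, was also the lowest in blood markers. Their part in the result was not tested, nor was that of the podocyte, stromal and liver markers.

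**Figure D4:**
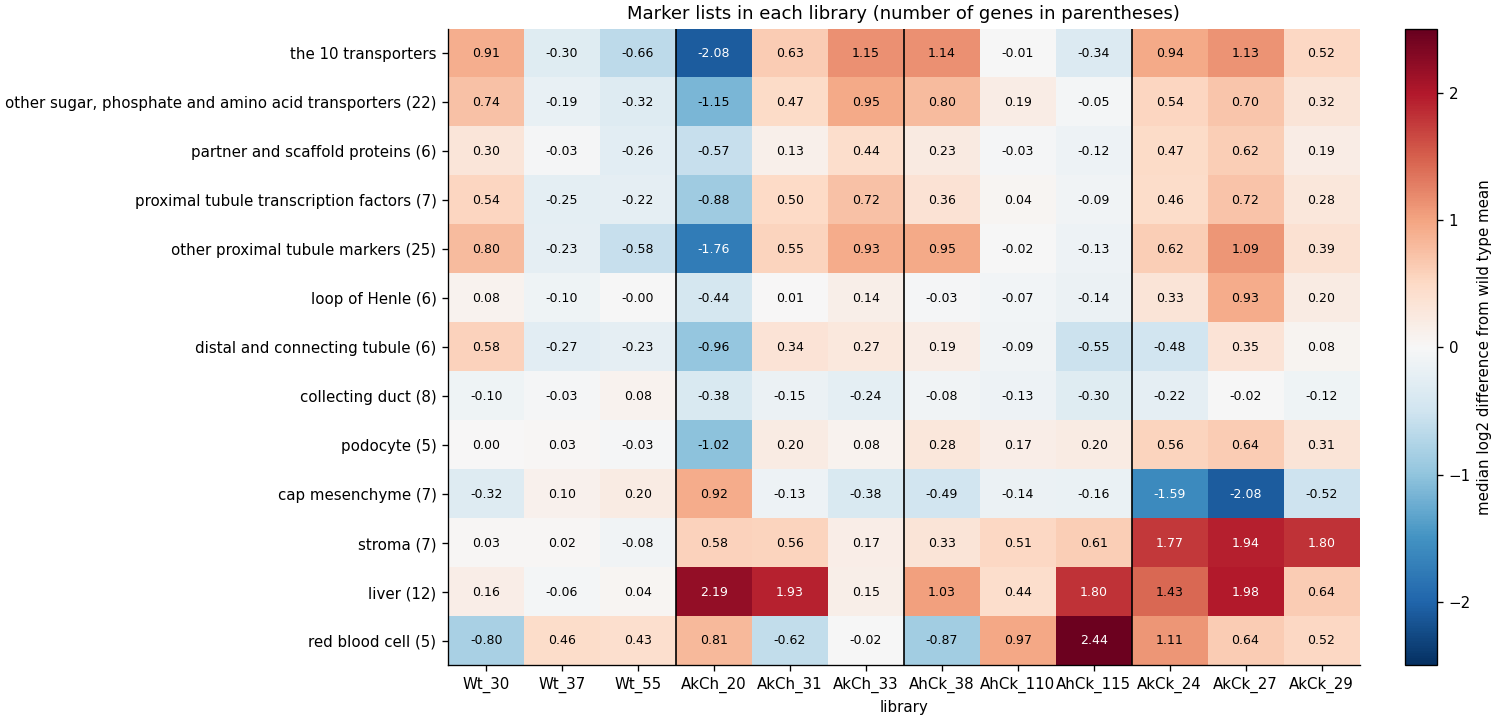
Median log2 difference from the Wt mean (colour and printed value) of each gene list (vertical axis, number of genes in parentheses) in each of the 12 libraries (horizontal axis, lines between genotypes). The 10 transporters read 0.91 in Wt_30 and -2.08 in AkCh_20, close to the 0.80 and -1.76 of the other proximal tubule markers, while cap mesenchyme reads -0.32 and 0.92.

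Each transporter's log2 CPM was also set relative to the mean log2 CPM of the 25 other proximal tubule markers in the same library, with the Wt mean at 0. This measure was chosen after seeing the data. It separates a transporter from the markers only if both change by the same factor between libraries. In AkCh_20 and AkCh_33, where the markers' mean was -1.66 and 1.05, Slc3a1 was at -0.77 and 0.56 and Slc38a3 at 0.65 and -0.39. The markers' mean was 0.34 to 1.05 in AkCk, and its part in the differences from Wt was not tested. The median SD of the transporters over Wt was 0.19 on this scale against 0.81 before, and over the 12 libraries 0.37 against 1.01; Slc7a9 followed the markers most closely, with an SD of 0.03 over Wt, and Slc5a2 least, with 0.70. On this scale Slc5a8 was at 0.39, -0.16 and -0.22 in Wt_30, Wt_37 and Wt_55 and at 0.94, 0.79 and 0.49 in AkCk_24, AkCk_27 and AkCk_29, and Slc3a1 was at 0.36, -0.07 and -0.30 in Wt and at 0.79, 0.83 and 0.47 in AkCk. For both, all 3 AkCk libraries lay above all 3 of Wt. So did AkCh_31 (0.41) for Slc5a8, and AkCh_31 (0.48), AkCh_33 (0.56), AhCk_38 (0.52) and AhCk_110 (0.45) for Slc3a1. Slc6a19 went the other way, at -0.05, -0.04 and 0.09 in Wt and -0.55, -0.57 and -0.47 in AkCk, as did Slc5a2, at 0.81, -0.36 and -0.45 in Wt and -1.32, -0.57 and -0.97 in AkCk.

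In all, 5 of 10 transporters were higher in AkCk than in Wt without overlap relative to the markers, where 1.33% of all genes tested were, and 3 of 10 were lower, where 7.59% were. These shares are no measure for genes that follow the markers: the markers' mean ranged from -0.59 to 0.83 within Wt, and subtracting it adds that spread to a gene that does not follow it. Nothing is read from them, here or in the comparisons below. The higher ones differed by 0.74 (Slc5a8), 0.70 (Slc3a1), 0.60 (Slc7a12), 0.41 (Slc38a3) and 0.39 (Slc5a1) in mean relative log2 CPM, and the lower ones by -0.95 (Slc5a2), -0.53 (Slc6a19) and -0.13 (Slc7a9). Slc34a1 (0.10) and Slc2a2 (-0.19) overlapped. With 3 against 3 libraries an exact permutation test of such a difference cannot give a two-sided p below 0.1, so none is given. With the median of the markers in place of their mean, 6 were higher, Slc34a1 being the added one, and 2 lower, Slc7a9 then overlapping. Of the 25 markers themselves 3 were higher (Fbp1, Ggt1 and Slc22a12) and 3 lower (Gatm, Miox and Slc22a8). Of the 22 other transporters 2 were higher (Slc6a20a and Slc6a20b) and 0 lower. Slc6a20a and Slc6a20b are near copies, and the study's methods describe removing reads that aligned to several places.

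For AkCh against Wt, 0 of 10 transporters were without overlap on this scale, where 0.184% of all genes were higher and 0.329% lower, and of the 25 markers 0 were higher and 2 lower. For AhCk against Wt Slc34a1 alone was higher, at 0.43, 0.27 and 0.16 in AhCk_38, AhCk_110 and AhCk_115 against 0.02, 0.05 and -0.07 in Wt, where 0.604% of all genes were higher and 1.11% lower, and of the 25 markers 2 were higher and 2 lower. For AkCk against AkCh Slc5a8 and Slc7a12 were higher and Slc7a9 lower, where 0.393% and 2.11% of all genes were, and of the 25 markers again 2 were higher and 2 lower. Slc38a3 in AkCh_20 reached 0.65 relative to the markers, above AkCk_24 (0.48), although its CPM there was the lowest of the 12 libraries.

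**Figure D5:**
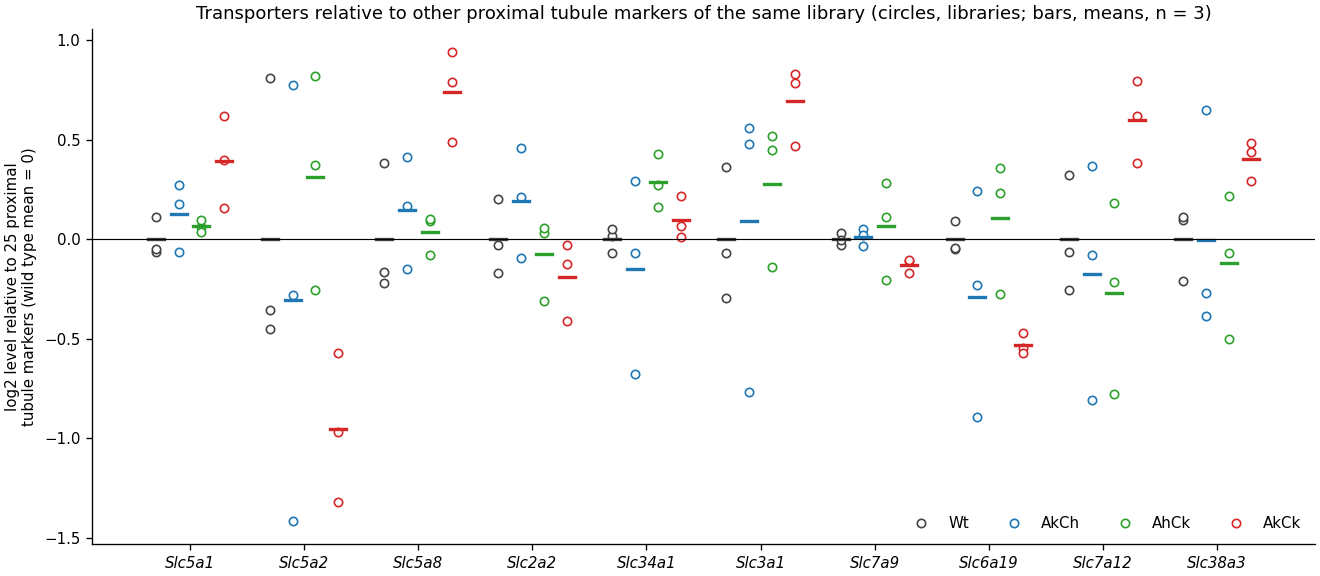
Log2 level of each transporter (horizontal axis) relative to the mean of 25 other proximal tubule markers of the same library (vertical axis, Wt mean at 0); circles are libraries and bars the means of 3. In AkCk Slc5a8 has a mean of 0.74 and Slc5a2 of -0.95, whereas Slc7a9 lies between -0.20 and 0.28 in all 12 libraries.

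The transporters were closely alike in their pattern over the libraries. Over the 45 pairs the Pearson correlation of log2 CPM across the 12 libraries had a median of 0.93, from 0.60 (Slc38a3 with Slc5a2) to 0.99 (Slc5a8 with Slc5a1). Outside the lists, the gene most like the mean standardized pattern of the 10 was Ehhadh, a peroxisomal enzyme of fatty acid oxidation, with r = 0.998 over 12 libraries (Spearman rho = 0.986), 0.998 over the 9 libraries of run1008, and 0.995 over 10 libraries without Wt_55 and AkCh_20, the 2 farthest from the median. It was at 35.5, 16.6 and 12.3 CPM in Wt, 5.60, 32.1 and 45.1 CPM in AkCh, 42.2, 19.6 and 16.7 CPM in AhCk, and 34.3, 43.0 and 26.2 CPM in AkCk. Among the next genes were Mcur1, a mitochondrial protein of calcium uptake (r = 0.992, rho = 0.993), Ace, the brush border peptidase that makes angiotensin (r = 0.992, rho = 0.972), and Tcn2, which carries vitamin B12 (r = 0.991, rho = 0.986). The median r of the 16130 genes compared was -0.05, that of the 25 other proximal tubule markers was 0.97 and that of the cap mesenchyme markers was -0.69. These are descriptions over libraries that share a tissue and, in 9 cases, a run; no p is attached to them.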

How the data were processed

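RNA of whole kidneys at embryonic day 18.5 was sequenced in 12 libraries of 4 genotypes. Paired-end reads were aligned by the authors to the mouse build mm10, named in the submitters' processing notes, and the authors deposited expected counts per gene and, in another table, log2 normalized values. Samples were grouped by the genotype in the labels. Nothing in the labels says that libraries of a group came from separate embryos, so p-values measure only the spread between these samples, which may be technical in part. Each mutant group held libraries with Xist above 1 CPM and others with Ddx3y above 1 CPM, and so came from more than 1 embryo. Symbols listed more than once (92) went to the entry with most counts.

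The deposited expected counts were rounded to whole numbers and tested in R 4.3.3 with the quasi-likelihood test of edgeR 4.0.16 (TMM factors, filterByExpr with a minimum count of 10 and a total of 15, Benjamini-Hochberg adjustment over all genes tested, threshold 0.05), each comparison on its own 6 libraries. The test named in the study's methods has no term for the spread between libraries and was not used. By that test, with filters on level and fold change, the study listed Slc5a8, Slc3a1, Slc7a12, Slc38a3 and Slc5a1 as higher in its double mutants. CPM values use TMM library sizes, and log2 CPM a prior count of 0.5. The alternatives were RLE factors, library sizes alone, DESeq2 1.42.0, no filter beyond 1 count, all 12 libraries in 1 fit, limma 3.58.1 on the deposited log2 values, Xist as a covariate, counts corrected by exon length and GC share in 20 bins (exon models of GENCODE M21, with values for at least 98.7% of the genes tested), and each library left out in turn. After seeing the data, a fit without Wt_30 and AkCh_20, and the levels relative to proximal tubule markers, were added. The test was checked on simulated counts. Tables and figures were made with Python 3.11.15 and matplotlib 3.10.9. The counts on genes ranged from 28616877 to 47067903 a library, and the floor of 3 counts covers counting error only.

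The members and the gene lists were chosen with earlier results of these data known. Genes are named by rule: all 10 transporters, of each list the genes past the threshold and the most abundant one, and the 5 genes outside the lists with the highest correlation with the mean standardized log2 CPM of the transporters. Some genes that the rule would name, and a motif search planned with them, are not reported here. Slc7a7 and the ratios of gene pairs were chosen after their values were seen. Gene positions and promoters are from RefSeq, GRCm38.p6, the assembly of mm10.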

Additional observations from a re-analysis of the deposited data

How the results depend on the processing

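No transporter passed the threshold with RLE factors, library sizes alone, DESeq2, no filter, all 12 libraries in 1 fit, limma, Xist as a covariate or counts corrected by exon length and GC share, in any of the 4 comparisons. With 1 library left out, the number of transporters past the threshold for AkCk against Wt ranged from 0 to 8, the 8 without Wt_30, which was known to differ in these genes, and it was 0 in every such fit of the other 3 comparisons. With Wt_30 and AkCh_20 both left out it was 10 for AkCh against Wt, and 2787 genes passed; these libraries were chosen by the transporters' own levels, so this count is no test, nor is that without Wt_30. No paired analysis was possible because the groups share no replicate numbers. AkCh_20 had the lowest depth, and Slc6a19 the fewest counts. For the changes listed here the cause was not tested.

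The number of genes past the threshold was 3380 with DESeq2, 1190 with all 12 libraries in the fit and 1009 with Xist as a covariate for AkCk against Wt, against 2171, and ranged from 535 to 3386 with 1 library left out. For AkCh against Wt it was 22 with DESeq2 and 2 with all 12 libraries, against 0, and ranged from 0 to 8. For AhCk against Wt it was 1318 with DESeq2, 149 with all 12 libraries, 134 with Xist as a covariate and 126 with the length and GC correction, against 376, and ranged from 60 to 549. For AkCk against AkCh it was 554 with DESeq2, 1 without the filter, 540 with all 12 libraries, 653 with Xist as a covariate and 2 with the length and GC correction, against 0, and ranged from 0 to 687.

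Log2 fold changes that changed sign were as follows. With library sizes alone, Slc6a19 was at -0.022 for AkCk against Wt, Slc38a3 at -0.0010 for AkCh against Wt and Slc2a2 at -0.014 for AkCk against AkCh. With all 12 libraries Slc2a2 was at -0.0033 for AkCk against AkCh. With Xist as a covariate Slc6a19 was at -0.41 for AkCk against Wt and 0.13 for AkCk against AkCh, Slc5a8 at -0.044 and Slc38a3 at -0.046 for AhCk against Wt, and for AkCh against Wt Slc5a1 at -0.11, Slc5a2 -0.90, Slc5a8 -0.25, Slc2a2 -0.049, Slc34a1 -0.34, Slc3a1 -0.30, Slc7a9 -0.25, Slc6a19 -0.53, Slc7a12 -0.49 and Slc38a3 -0.24. With limma, for AkCh against Wt, Slc5a2 was at -0.34, Slc34a1 -0.18, Slc7a9 -0.015, Slc6a19 -0.32, Slc7a12 -0.20 and Slc38a3 -0.031, and for AkCk against AkCh Slc5a2 at 0.052 and Slc6a19 at 0.46. With the length and GC correction Slc7a12 was at 0.32 and Slc38a3 at -0.029 for AhCk against Wt.

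With 1 library left out, the log2 fold changes of transporters that changed sign ranged as follows. For AkCk against Wt, Slc5a2 ranged from -1.18 to 0.62 and Slc6a19 from -0.19 to 0.54. In the same comparison others moved without changing sign. Slc2a2 ranged from 0.04 (without Wt_55) to 0.84 (without Wt_30), Slc7a9 from 0.15 to 0.98 and Slc34a1 from 0.36 to 1.19. Slc5a1 ranged from 0.61 to 1.53, Slc5a8 from 0.83 to 2.05, Slc3a1 from 0.79 to 1.99, Slc7a12 from 0.74 to 1.91 and Slc38a3 from 0.80 to 1.41. For AkCh against Wt, Slc5a1 ranged from -0.10 to 0.91, Slc5a2 from -1.11 to 1.505, Slc5a8 from -0.14 to 1.19, Slc2a2 from -0.30 to 0.84, Slc34a1 from -0.49 to 0.86, Slc3a1 from -0.14 to 1.38, Slc7a9 from -0.34 to 0.78, Slc6a19 from -0.18 to 0.68, Slc7a12 from -0.21 to 1.00 and Slc38a3 from -0.31 to 0.43. For AhCk against Wt, Slc5a1 ranged from -0.24 to 0.84, Slc5a2 from -0.54 to 1.63, Slc5a8 from -0.41 to 0.97, Slc2a2 from -0.39 to 0.63, Slc34a1 from -0.062 to 1.06, Slc3a1 from -0.23 to 1.25, Slc7a9 from -0.31 to 0.87, Slc6a19 from -0.17 to 0.86, Slc7a12 from -0.85 to 0.79 and Slc38a3 from -0.16 to 0.43. For AkCk against AkCh, Slc5a2 ranged from -1.40 to 0.42, Slc2a2 from -0.40 to 0.65, Slc34a1 from -0.16 to 1.13, Slc7a9 from -0.23 to 0.76 and Slc6a19 from -0.62 to 0.23. In the other alternatives, 78 of 80 values kept direction and call for AkCk against Wt, 63 of 90 for AkCh against Wt, 76 of 80 for AhCk against Wt and 75 of 80 for AkCk against AkCh.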
